A study of Ovis aries with 95 samples.

Results

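Fibroblast growth factor 1 (FGF1, acidic FGF) was followed in the developing sheep brain as the only member described here, 1 of 14342 gene names on the array. It was found as every gene probe whose symbol, taken from the names and identifiers in the array files, is FGF1. This gave 1 probe, printed as 1 of 15208 gene spots, and probes left without a symbol were not counted. FGF1 was selected on its measured levels by age, which rose with maturation in these arrays. Its levels by age are therefore given as a description without a test, and tests were kept for differences between regions and for other genes of the FGF pathway.

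Sheep (Ovis aries) were sampled as fetuses labelled 80, 100, 120, 130 and 145 days of gestation and as lambs 1 day after birth, here called newborn. The methods give the groups labelled 100 and 145 d as ranges of a few days, which end at 100 d and shortly before 145 d. Total RNA was taken from 4 brain regions of each age, the cortex, the brainstem, the hippocampus and the hypothalamus. The labels name no treatment or genetic change for any of the 24 groups. The cortex was a section of the frontal lobe. The 95 one-colour arrays gave 4 arrays per group, with 3 for the hippocampus at 100 d. The methods count 4 animals at each age for all 4 regions, so the regions of an age were taken from the same animals, and no source says which arrays share one. Each age also held 1 pair of twins, which the labels do not mark, so the spread between arrays may understate that between unrelated animals.

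FGF1 is a heparin-binding growth factor that acts on the FGF receptor tyrosine kinases and, unlike most secreted proteins, has no classical signal peptide for export. In the brain it is found in neurons and in some glia, and it is known for its trophic effects on neurons. Receptor activation runs through the RAS-MAPK, PI3K-AKT and STAT routes, switches on early response genes such as FOS and EGR1, and is held back by feedback inhibitors of the Sprouty family. FGF2 is its closest well-studied relative among the ligands measured, while FGF18 belongs to the FGF8 subfamily of developmental ligands.

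The probes of 3 FGF ligands are shown because the levels of these genes rest on them. FGF1 and FGF18 each depend on a single spot, with no second probe of that symbol to set beside it. Capitals in FGF1 and FGF18 mark the longest run shared with a probe of any other gene on the array, on either strand, and capitals in FGF2 mark the stretch its 2 probes have in common.
FGF1 probe: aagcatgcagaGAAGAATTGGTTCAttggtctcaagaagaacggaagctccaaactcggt
FGF2 probe, first: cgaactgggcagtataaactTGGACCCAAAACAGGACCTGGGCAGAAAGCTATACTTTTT
FGF2 probe, second: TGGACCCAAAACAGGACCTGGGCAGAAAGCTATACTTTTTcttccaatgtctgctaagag
FGF18 probe: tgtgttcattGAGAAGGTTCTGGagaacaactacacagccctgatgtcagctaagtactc

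The FGF1 probe lies at bases 75 to 134 of a partial coding sequence of sheep FGF1, and its coordinate field in the array files reads unmapped, so no chromosomal position is given. It has 60 bases with 45% G and C. Its longest run in common with any other gene's probe was 14 bases, and its longest run in common with a probe of another FGF was 8 bases, in FGF18. The 2 FGF2 probes share 40 bases and are therefore not independent readings of FGF2.

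The FGF1 spot was well above background on 95 of 95 arrays, with no outlier mark and no saturation. Its mean intensity ran from 79.4 to 2990 and the local background from 43 to 87.5. The lowest intensity was that of replicate 4 of the 80 d hippocampus. Of all gene spots, 59.5 to 88.5% exceeded background clearly on an array, with the lowest value in the hippocampus. Levels below are log2 intensities after background correction and quantile normalization, and a difference of 1 corresponds to a 2-fold change that the correction narrows for dim spots.

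In every region FGF1 was lowest at 80 d and stood higher at each later age. From 80 d to the newborn the mean level was 2.40 higher in the hippocampus (SE 0.24), 1.40 higher in the cortex (SE 0.19), 1.1 higher in the brainstem (SE 0.22) and 0.42 higher in the hypothalamus (SE 0.23). These differences correspond to 5.29-fold, 2.64-fold, 2.15-fold and 1.33-fold, and the 95% interval of the hypothalamus, from -0.05 to 0.89, includes 0. From 80 d to 145 d the differences were 2.51, 1.61, 1.33 and 1.02 in the same order. As the tissues are mixtures of cells, more cells that express FGF1 and more FGF1 RNA per cell cannot be told apart.

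**Figure D1:**
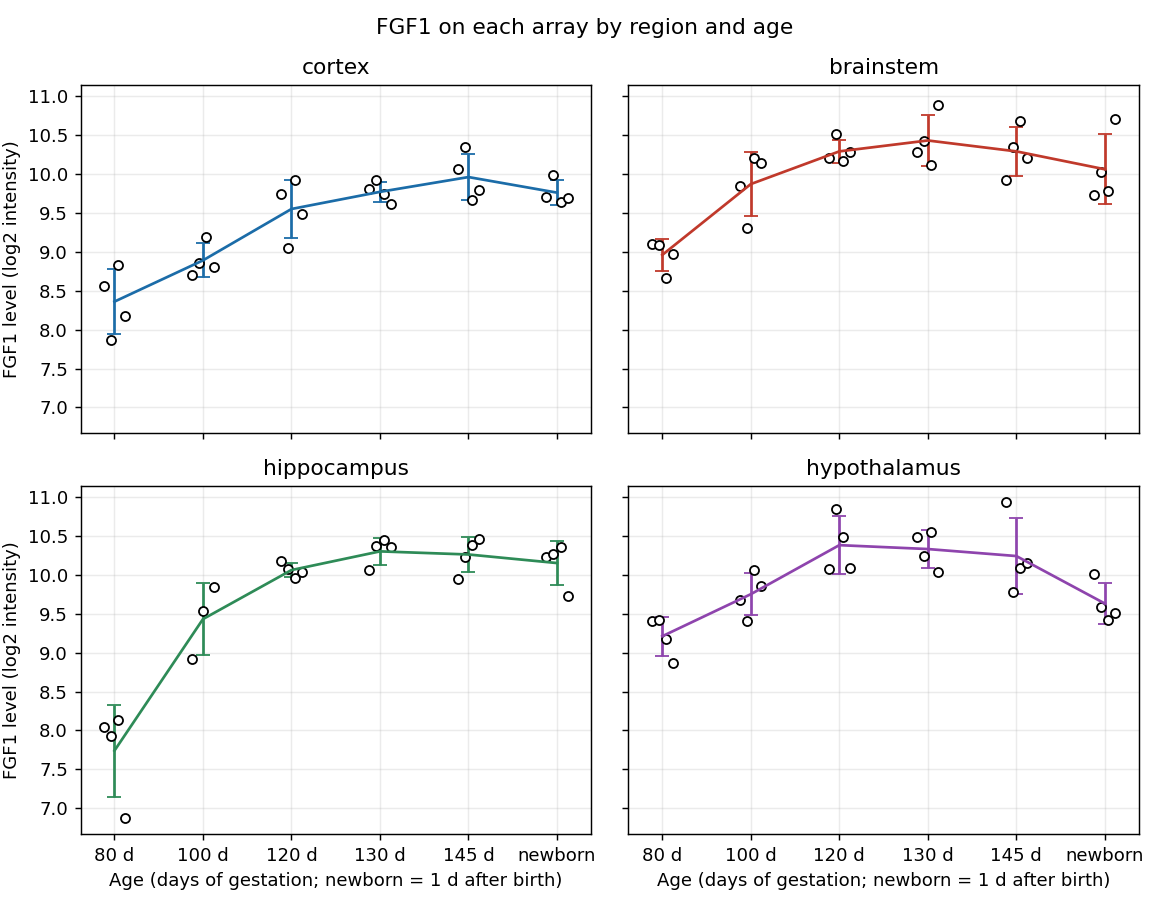
Level of FGF1 (log2 intensity, vertical axis) on each array (open points) against age (horizontal axis) in the 4 regions, with the mean and SD of each group as lines and bars (n = 4, hippocampus at 100 d n = 3). The means start between 7.74 and 9.21 at 80 d and lie between 9.96 and 10.29 at 145 d.

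In the cortex, the arrays at 80 d read 8.56, 7.87, 8.83 and 8.17 (mean 8.36, SD 0.42, n = 4). At 100 d they read 8.70, 8.85, 9.19 and 8.80, and 2 of these 4 lay above the highest 80 d array. At 120 d the values were 9.74, 9.05, 9.92 and 9.49, all above the 80 d arrays. The cortex was still higher at 130 d, with 9.81, 9.92, 9.74 and 9.61, the least scattered of its 6 ages. At 145 d the arrays read 10.06, 10.34, 9.66 and 9.79, which gave the highest mean of the cortex, 9.96 (SD 0.30, n = 4). The newborn cortex read 9.70, 9.99, 9.64 and 9.69 (mean 9.76, SD 0.16, n = 4). Its mean differed from that of 145 d by -0.21, with overlapping arrays.

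In the brainstem, the 80 d arrays read 9.1, 9.09, 8.66 and 8.97 (mean 8.96, SD 0.21, n = 4). At 100 d the values were 9.84, 9.30, 10.21 and 10.14, all above those of 80 d. Of the rise to the highest mean, 62.2% was reached by 100 d. The arrays at 120 d read 10.21, 10.51, 10.16 and 10.28. At 130 d, where the brainstem mean was highest (10.43, SD 0.33, n = 4), they read 10.28, 10.42, 10.12 and 10.89. This was also the highest of all 24 group means. At 145 d the values were 9.92, 10.34, 10.68 and 10.21 and in the newborn 9.73, 10.02, 9.78 and 10.71. The newborn group was widely spread (SD 0.45), since replicate 4 lay 0.65 above its mean. On that array the 294 gene spots around FGF1 also lay above their group means, by a median of 0.44, which was the largest such shift of the 95 arrays, and its part in the FGF1 value was not tested. Without replicate 4 the newborn brainstem stood 0.89 above 80 d.

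The hippocampus had the lowest start and the steepest course. Its 80 d arrays read 8.04, 7.93, 8.14 and 6.87 (mean 7.74, SD 0.59, n = 4), so replicate 4 lay apart from the other 3. On this array the spots around FGF1 differed from their group means by a median of -0.30. Of other genes described below, MYC also read low there, at 9.28 against 11.12 to 11.75, and FGF18, at 6.75 against 7.34 to 7.67. FGF2 and FOS instead read high there, at 9.9 against 9.2 to 9.6 and at 7.93 against 7.02 to 7.44. At 100 d the 3 arrays read 8.92, 9.53 and 9.84, all above the 80 d arrays. The values at 120 d, 10.17, 10.08, 9.96 and 10.03, again lay above every 100 d array. The hippocampus was the only region whose arrays did not overlap in both of these steps. At 130 d the arrays read 10.06, 10.37, 10.44 and 10.35 (mean 10.30, SD 0.17, n = 4), at 145 d 9.95, 10.23, 10.38 and 10.46, and in the newborn 10.23, 10.27, 10.36 and 9.73. From 120 d onward these levels overlapped from each age to the next. With replicate 4 of 80 d left out, the newborn hippocampus was 2.11 above 80 d.

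In the hypothalamus, the 80 d arrays read 9.40, 9.42, 9.17 and 8.87 (mean 9.21, SD 0.25, n = 4), the highest start of the 4 regions. At 100 d they read 9.68, 9.41, 10.06 and 9.85, and at 120 d 10.07, 10.85, 10.49 and 10.09. The hypothalamus reached its highest mean at 120 d (10.38, SD 0.37, n = 4), earlier than the other regions. The values at 130 d were 10.49, 10.24, 10.55 and 10.03. At 145 d they were 10.94, 9.78, 10.09 and 10.15, where replicate 1 lay highest. The newborn hypothalamus read 10.01, 9.58, 9.42 and 9.51 (mean 9.63, SD 0.26, n = 4), and its lowest array equalled the highest 80 d array at 2 decimals. Its mean differed from that of 145 d by -0.61, with an unadjusted 95% interval of -1.08 to -0.14, and the arrays of these ages still overlapped. As FGF1 was selected on its levels by age, this interval is a description and no test. Leaving out each of their 8 arrays in turn gave differences of -0.76 to -0.37.

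By 120 d FGF1 had come near or to its highest mean in the brainstem, hippocampus and hypothalamus, and less so in the cortex. At that age 74% of the rise to the highest mean had been reached in the cortex, 90.5% in the brainstem, 90.4% in the hippocampus and 100% in the hypothalamus. From 80 to 100 d the 4 means rose by 0.53 to 1.69 and from 100 to 120 d by 0.42 to 0.66. From 120 to 130 d the changes lay between -0.05 and 0.24, and from 130 to 145 d between -0.14 and 0.20. From 145 d to the newborn all 4 means were lower, with differences of -0.21 in the cortex, -0.23 in the brainstem, -0.11 in the hippocampus and -0.61 in the hypothalamus, and in each region the arrays of these 2 ages overlapped. With single arrays left out, the sign of this difference held in the cortex, brainstem and hypothalamus, and in 7 of 8 cases in the hippocampus.

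Ordered by mean level, the 24 groups ran from 10.43 in the 130 d brainstem, through 10.38 and 10.33 in the hypothalamus at 120 and 130 d and 10.30 in the hippocampus at 130 d, down to 8.36 in the cortex and 7.74 in the hippocampus at 80 d. The other 80 d groups, 9.21 in the hypothalamus and 8.96 in the brainstem, stood in places 20 and 21, above the cortex at 100 d with 8.89. In all 23 neighbouring pairs of this order the arrays overlapped, so no neighbours were set apart beyond their spread. The largest gap, 0.62, lay between the 80 d cortex and the 80 d hippocampus.

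Among all genes tested in a region, the FGF1 difference from 80 d to the newborn exceeded that of 99.3% of 12684 genes in the hippocampus, 97.1% of 12899 in the cortex, 95.3% of 12775 in the brainstem and 83.8% of 12925 in the hypothalamus. The median difference over all genes was between -0.03 and 0.02. For 145 d against 80 d FGF1 exceeded at least 96.1% of genes in each region. Because FGF1 was selected for its rise in these arrays, high ranks follow from the selection and only describe its size. The slides held 1 region each, and the difference could be taken within slides that carried both ages. Within single slides the newborn stood 1.16 to 1.5 above 80 d in the cortex (3 slides), 0.63 to 1.36 in the brainstem (3 slides), 2.13 to 2.24 in the hippocampus (2 slides) and 0.30 to 0.71 in the hypothalamus (3 slides). The spots around FGF1 had a median newborn difference of -0.03 to 0.16.

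Whether FGF1 differs between regions over development was tested as the mean of the 6 differences within ages, in limma over all 95 arrays. The test treated arrays as independent although the regions of an age share animals, and its p-values do not account for this. The cortex was the lowest region. Its mean over ages was 9.38, against 9.98 in the brainstem, 9.92 in the hypothalamus and 9.66 in the hippocampus. The cortex was below the brainstem (-0.60, SE 0.09, adjusted p = 5.86e-08), lower at 6 of 6 ages, and below the hypothalamus (-0.54, SE 0.09, adjusted p = 9.94e-07), lower at 5 of 6 ages. In these 2 comparisons 54.5% and 50% of all genes passed, so a difference between regions was common on this array.

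Brainstem minus hypothalamus was 0.06 (95% interval -0.12 to 0.24, adjusted p = 0.619), a comparison in which 46.7% of genes passed. The sign of this small difference turned to -0.01 with the processed signals of the scanner software. The hippocampus lay between these regions and the cortex. It stood above the cortex, with a cortex minus hippocampus difference of -0.28 (adjusted p = 0.0102, 54.5% of genes passing). It stood below the brainstem, with a brainstem minus hippocampus difference of 0.33 (adjusted p = 0.00283, 49% of genes passing), and below the hypothalamus (-0.27, adjusted p = 0.0156, 48.6% of genes passing). All 3 differences of the hippocampus lost their call with the slide as a random block, at adjusted p = 0.185, 0.124 and 0.275, while those of the cortex with the brainstem (adjusted p = 0.00252) and with the hypothalamus (adjusted p = 0.00971) passed.

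The differences of the hippocampus changed with age. At 80 d it was 1.47 under the hypothalamus, 1.21 under the brainstem and 0.62 under the cortex. At all 5 later ages the hippocampus stood above the cortex, with cortex minus hippocampus at -0.54 to -0.29. In the newborn it was 0.52 above the hypothalamus, and brainstem minus hippocampus was -0.09. Without the 80 d arrays, cortex minus hippocampus was -0.45 (adjusted p = 9.41e-05), whereas brainstem minus hippocampus was 0.15 (adjusted p = 0.215) and hippocampus minus hypothalamus -0.02 (adjusted p = 0.848), and both of these no longer passed. The gap between the highest and the lowest region narrowed from 1.47 at 80 d to 0.99 at 100 d, 0.83 at 120 d, 0.66 at 130 d and 0.32 at 145 d, and was 0.52 in the newborn. These gaps are given as a description.

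**Figure D2:**
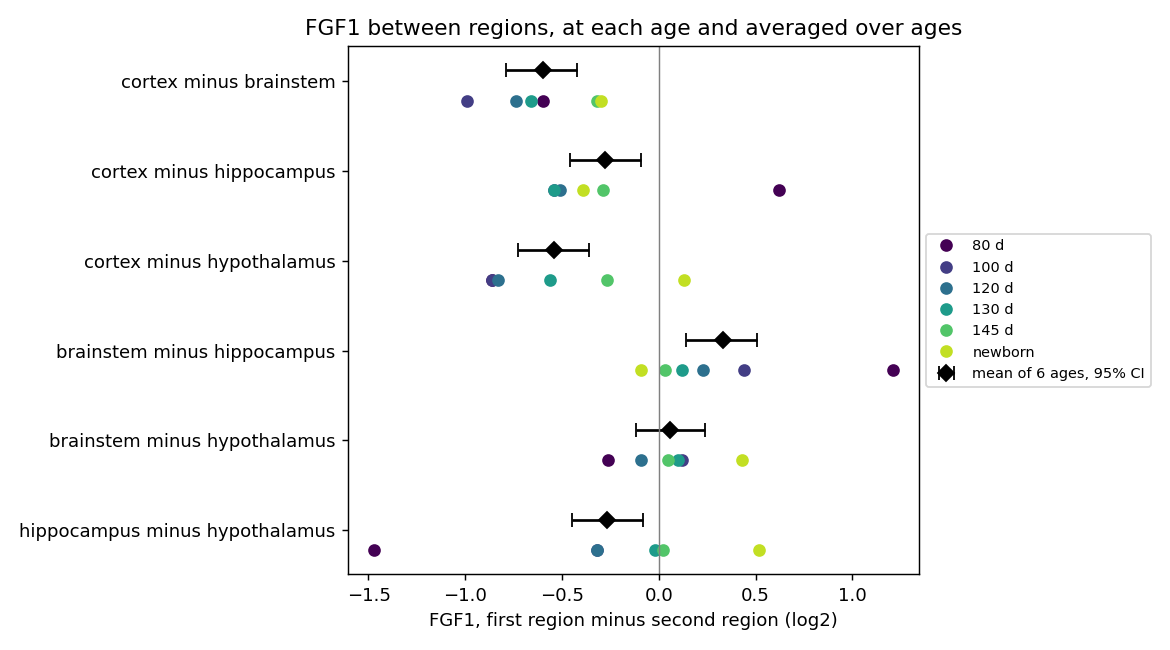
Difference in FGF1 level between regions (log2, horizontal axis) for the 6 pairs of regions (vertical axis), at each age (coloured points) and as the mean over ages with its 95% interval (black diamonds). Cortex minus brainstem lies below 0 at all 6 ages, and the pairs with the hippocampus have their 80 d point far from the rest.

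The rest of the pathway was examined in lists of FGF ligands, receptors and co-receptors, partners in export and binding, signal transduction, and targets with feedback inhibitors. Of 120 listed genes besides FGF1, 20 had a probe with a symbol and were tested in every region. Of 15008 probes, 13352 had no symbol, so other listed genes may be on the array unnamed. Genes called measured are those with a symbol. From 80 d to the newborn, 6 of the 20 were called higher and 3 lower in the cortex, where 19.8% of all genes were higher and 25% lower. In the brainstem 3 were higher and 10 lower, beside 21.8% and 21.1% of all genes. In the hypothalamus 2 were higher and 3 lower, beside 8.16% and 9.89%. In the hippocampus 0 of 20 passed in limma, where 2.36% of all genes were higher and 3.38% lower, and 5 of the 20 had an unadjusted p under 0.05, beside 18.1% of all genes. With the brighter MYC probe alone, or with the slide as a block, MYC passed there. The median difference of the 20 genes was 0.13 in the cortex, -0.22 in the brainstem, 0.08 in the hippocampus and -0.02 in the hypothalamus. Of the 20 genes, 17 passed in at least 1 region, and only MYC and FGF18 passed in 3 regions. The share of all genes passing in at least 1 region was not counted, so these counts are no result about the lists.

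Of the other 4 ligands measured, none was called higher from 80 d to the newborn in any region. Of all genes 2.36 to 21.8% were called higher in a region, so for 4 ligands this count is no result about the list. FGF18 fell in the cortex (-0.86, SE 0.08, adjusted p = 3.97e-08), in the brainstem (-0.44, SE 0.12, adjusted p = 0.00542) and in the hypothalamus (-1.14, SE 0.17, adjusted p = 5.82e-05). In the cortex FGF18 read 7.57, 7.65, 7.78 and 7.41 at 80 d and 6.85, 6.65, 6.72 and 6.76 in the newborn. In the hypothalamus it read 8.83, 7.91, 7.74 and 8.13 at 80 d and 6.99, 6.85, 7.10 and 7.13 in the newborn. These groups did not overlap, and FGF18 ran opposite to FGF1 in both regions. In the hippocampus FGF18 did not pass (-0.35, SE 0.41, adjusted p = 0.707), with overlapping arrays.

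FGF2 was 0.38 to 0.79 higher in the newborn than at 80 d in the 4 regions, and passed in none (adjusted p of 0.057 to 0.24). Its means at 145 d, not tested against 80 d, were 10.32 against 9.21 in the brainstem and 10.27 against 9.52 in the hippocampus. In these regions the arrays of the ages did not overlap. With overlapping arrays, the means were 10.35 against 9.90 in the hypothalamus and 9.29 against 8.93 in the cortex. FGF10, a ligand of FGFR2 best known from limb and lung outgrowth, fell in the brainstem (-0.24, adjusted p = 0.0299), and 2 of the 12 alternatives lost this call. FGF7, known as keratinocyte growth factor, passed in no region, with differences of -0.11 to 0.35.

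The receptors had no common direction. FGFR1 fell in the brainstem (-0.98, SE 0.14, adjusted p = 1.07e-05), from a mean of 8.0 to 7.02, and passed in no other region, with differences of 0.25 in the cortex (adjusted p = 0.094), -0.36 in the hippocampus and -0.01 in the hypothalamus. FGFR2 rose in the brainstem by 0.60 (SE 0.16, adjusted p = 0.0058) and in the hypothalamus by 0.38 (SE 0.13, adjusted p = 0.0447), and only 7 of 12 alternatives kept the call in the hypothalamus. FGFR3, which is found on astrocytes and neural progenitors, rose in the cortex by 0.24 (adjusted p = 0.0439). This call was lost with every probe on its own, with the brightest probe (adjusted p = 0.0861) and without any 1 of 10 cortex arrays (adjusted p up to 0.111). Its probes were not well above background on any 80 d array of the cortex. With these arrays raised to their lowest level well above background, the newborn mean was 1.15-fold higher. This value does not allow for the spread between arrays. ITGAV, the integrin alpha V subunit that can bind FGF1, rose in the brainstem by 0.46 (SE 0.10, adjusted p = 0.000736).

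The partners in export and binding were represented by ANXA2 and MMP2. ANXA2, a membrane-binding annexin, fell in the brainstem (-1.61, SE 0.41, adjusted p = 0.00385), and its newborn arrays were widely spread, from 9.89 to 12.92. MMP2, a matrix metalloproteinase that can cleave FGFR1, fell in the brainstem (-0.79, SE 0.12, adjusted p = 2.14e-05). Neither gene passed in another region.

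Among the signal transducers, AKT1, the kinase downstream of PI3K, fell in the cortex (-0.59, SE 0.18, adjusted p = 0.00894) and in the brainstem (-1.11, SE 0.17, adjusted p = 3.58e-05). ARAF, a RAF kinase of the MAPK route, rose in the cortex by 0.60 (SE 0.09, adjusted p = 6.27e-06). STAT5A rose in the cortex by 0.20 (adjusted p = 0.0181) and fell in the brainstem (-0.28, adjusted p = 0.0108).

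The targets and feedback inhibitors included the largest differences. MYC, a transcription factor of growing cells, fell in the cortex (-1.51, SE 0.15, adjusted p = 6.31e-08), in the brainstem (-1.79, SE 0.12, adjusted p = 9.94e-10) and in the hypothalamus (-1.33, SE 0.35, adjusted p = 0.0115). In the brainstem it read 11.34, 11.56, 11.39 and 11.29 at 80 d and 9.60, 9.71, 9.33 and 9.79 in the newborn, with no overlap. FOS rose in the cortex by 2.31 (SE 0.23, adjusted p = 3.42e-08), from 7.09, 7.32, 7.30 and 7.24 at 80 d to 9.13, 8.92, 10.06 and 10.09, and in the hypothalamus by 1.19 (SE 0.21, adjusted p = 0.000376). The 4 FOS probes differed in size, by 0.97 to 3.74 in the cortex. EGR1 rose in the cortex by 0.70 (SE 0.13, adjusted p = 0.000161) and in the brainstem by 0.45 (SE 0.09, adjusted p = 0.000393), where its 2 probes disagreed, at -0.05 and 0.96.

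SPRY2, a feedback inhibitor of receptor tyrosine kinase signalling, rose in the cortex by 0.62 (SE 0.16, adjusted p = 0.00393), from 8.53 to 8.80 at 80 d to 9.0 to 9.52 in the newborn. Its relative SPRY4 fell in the brainstem (-0.29, adjusted p = 0.0134). PAX6, a transcription factor of neural progenitors, fell in the brainstem (-1.55, SE 0.23, adjusted p = 2.21e-05) and in the hypothalamus (-0.62, SE 0.17, adjusted p = 0.0132). JUN passed in no region, with differences of -0.13 to 0.29.

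**Figure D3:**
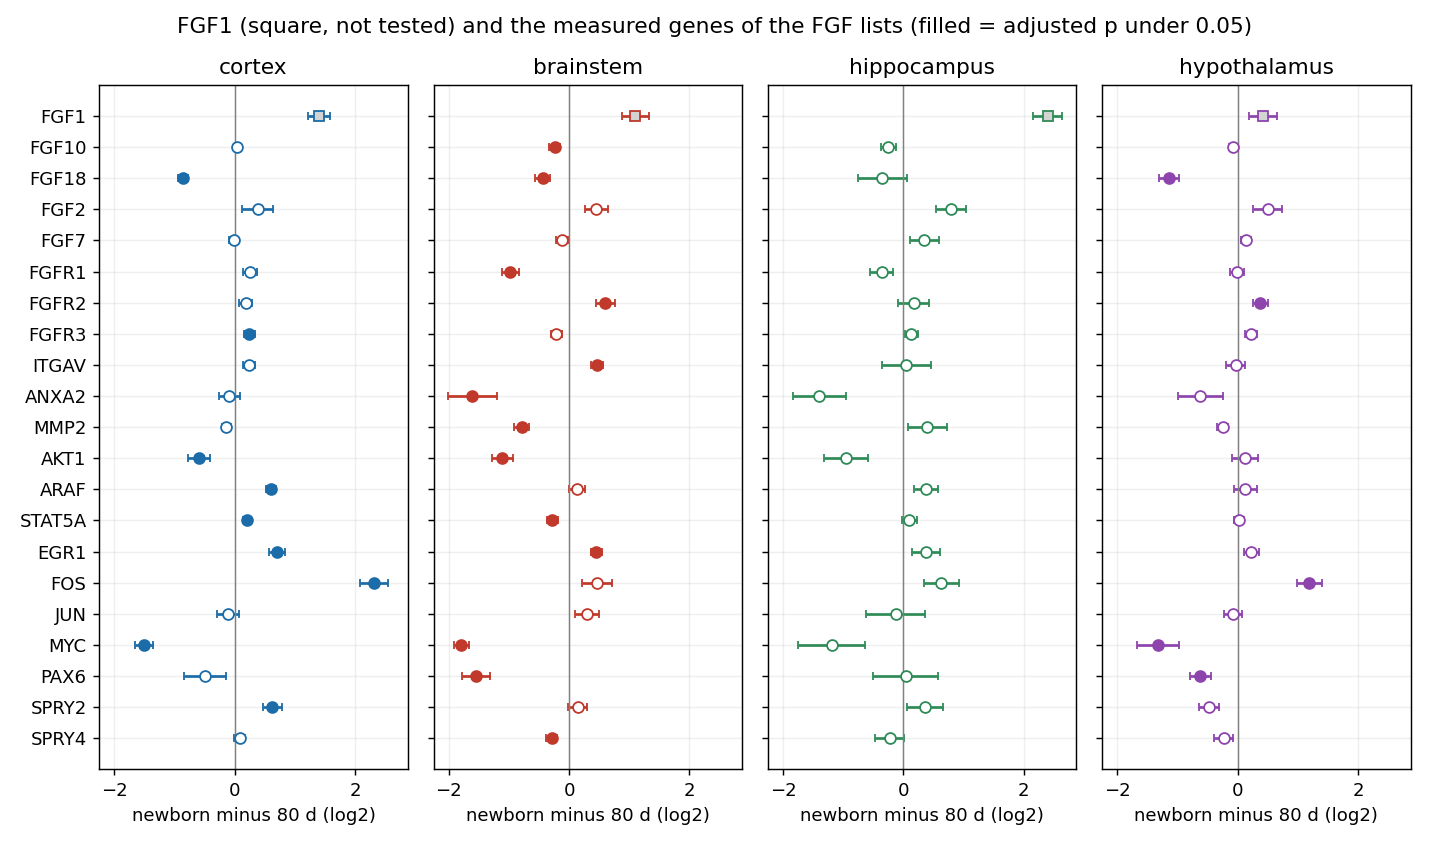
Difference from 80 d to the newborn (log2, horizontal axis, bars are SE) of FGF1 and the 20 other measured genes of the FGF lists (vertical axis) in the 4 regions. Filled circles passed at an adjusted p under 0.05, open circles did not, and the square of FGF1 was not tested. MYC lies left of 0 in all 4 regions, while the hippocampus has no filled circle.

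Across birth few of these genes passed. From 145 d to the newborn, 0 of the 20 passed in the cortex and in the hippocampus in limma, where 0.163% and 0.00788% of all genes were higher and 0.0853% and 0% lower. At an unadjusted p under 0.05 there were 1 of 20 in the cortex and 0 in the hippocampus, beside 7.66% and 2.74% of all genes, and 6 in the brainstem and 5 in the hypothalamus, beside 21.1% and 20.1%. In the brainstem 0 were higher and 1 lower, beside 3.68% and 1.22% of all genes. This gene was FGF2 (-0.66, SE 0.19, adjusted p = 0.047). FGF2 read 10.18, 10.18, 10.59 and 10.34 at 145 d and 9.66, 9.56, 9.94 and 9.50 in the newborn brainstem, with no overlap, although only 6 of 12 alternatives kept this call. In the hypothalamus AKT1 rose by 0.87 (SE 0.22, adjusted p = 0.0401), where 1.42% of all genes were higher and 1.06% lower. Leaving out single arrays ended both of these calls at least once.

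Markers of cell types also changed from 80 d to the newborn, some of them at other ages than FGF1. Their part in the FGF1 levels was not tested. Their counts stand beside the shares of all genes called higher (19.8% in the cortex, 21.8% in the brainstem, 2.36% in the hippocampus and 8.16% in the hypothalamus) and lower (25%, 21.1%, 3.38% and 9.89%). Here too only probes with a symbol were counted, and other listed markers may lie on probes without one. Of 19 oligodendrocyte genes listed, 3 were measured in this way, CRYAB, GJB1 and TF. All 3 rose from 80 d to the newborn in each of the 4 regions, with median differences of 3.30 to 4.61. The mean level of these 3 genes was 7.93 to 8.22 on the 80 d arrays and 11.13 to 11.90 on the newborn arrays of the cortex, and 8.65 to 8.89 and 12.45 to 13.60 in the hippocampus. Other cells can also express these 3 genes. From 80 to 100 d in the hippocampus, TF went from 9.73 to 9.90 and GJB1 from 6.87 to 6.73, while FGF1 went from 7.74 to 9.43. CRYAB went from 9.84 to 10.78 there. In the brainstem all 3 means were higher at 100 d than at 80 d, as was that of FGF1. Of 7 measured astrocyte genes, which include FGFR3, 7 rose in the cortex, 4 in the hippocampus, 3 in the brainstem and 3 in the hypothalamus, where 1 fell. Their median difference was 0.31 in the brainstem and 1.42 in the cortex.

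Of 6 proliferation genes, 6 fell in the cortex, 6 in the brainstem, 5 in the hypothalamus and 4 in the hippocampus, with medians of -1.77 to -1.10. Both measured microglial genes, CD14 and ITGAM, rose in the cortex, brainstem and hypothalamus. CD14 rose there mainly after 145 d, from 7.69 to 8.74, 8.07 to 8.78 and 7.71 to 8.43 in this order. ITGAM did so only in the brainstem, from 6.75 to 7.17. The neuronal list was measured by GRIA1 and GRIN1 alone, so the neuronal content of the tissue could not be read from it, and of these 1 fell in the cortex and 1 in the brainstem. Of up to 7 endothelial and pericyte genes 2 rose in the cortex, 1 in the brainstem and 1 in the hypothalamus. Of 3 choroid plexus genes 1 rose in the cortex and 1 fell in the brainstem, and of 2 erythroid genes 1 fell in the brainstem. Beside the shares of all genes, these endothelial, choroid plexus and erythroid counts are no result about the lists.

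The genes most like FGF1 were found by Pearson's r over the 24 group means, among 884 other genes with a symbol, whose median r was 0.0692. The group means share arrays, animals and ages, and r is a description. PTGDS, prostaglandin D2 synthase, stood first with r = 0.919, followed by TF, transferrin, with 0.85, the glucose transporter GLUT8 with 0.842, RTP4, a chaperone of receptor transport, with 0.824, and the cytochrome P450 gene CYP2J with 0.816. PTGDS was the only gene with r above 0.9. TF is also 1 of the 3 oligodendrocyte genes above. Within the 6 ages of a region the r of PTGDS was 0.996 in the cortex, 0.992 in the brainstem, 0.98 in the hippocampus and 0.795 in the hypothalamus.

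From 80 d to the newborn PTGDS differed by 2.08 to 5.46 and TF by 3.30 to 6.28 over the regions, against 0.42 to 2.40 for FGF1. In the hypothalamus these 5 genes did not all follow FGF1 across birth, where FGF1 had a mean of 10.24 at 145 d and 9.63 in the newborn. The means of TF, from 16.97 to 16.67, and RTP4, from 11.36 to 10.93, were also lower in the newborn. Those of PTGDS, from 16.26 to 16.64, GLUT8, from 9.71 to 10.19, and CYP2J, from 8.54 to 8.82, were higher. The genes least like FGF1 were the pentraxin PTX3 with r = -0.849, the cytokine TNFSF11 with -0.844 and the poly(A)-binding protein PABPC1 with -0.842. PTX3 differed by -1.84 to -0.98 and PABPC1 by -2.0 to -0.49 from 80 d to the newborn, and TNFSF11 by only -0.45 to -0.03.

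**Figure D4:**
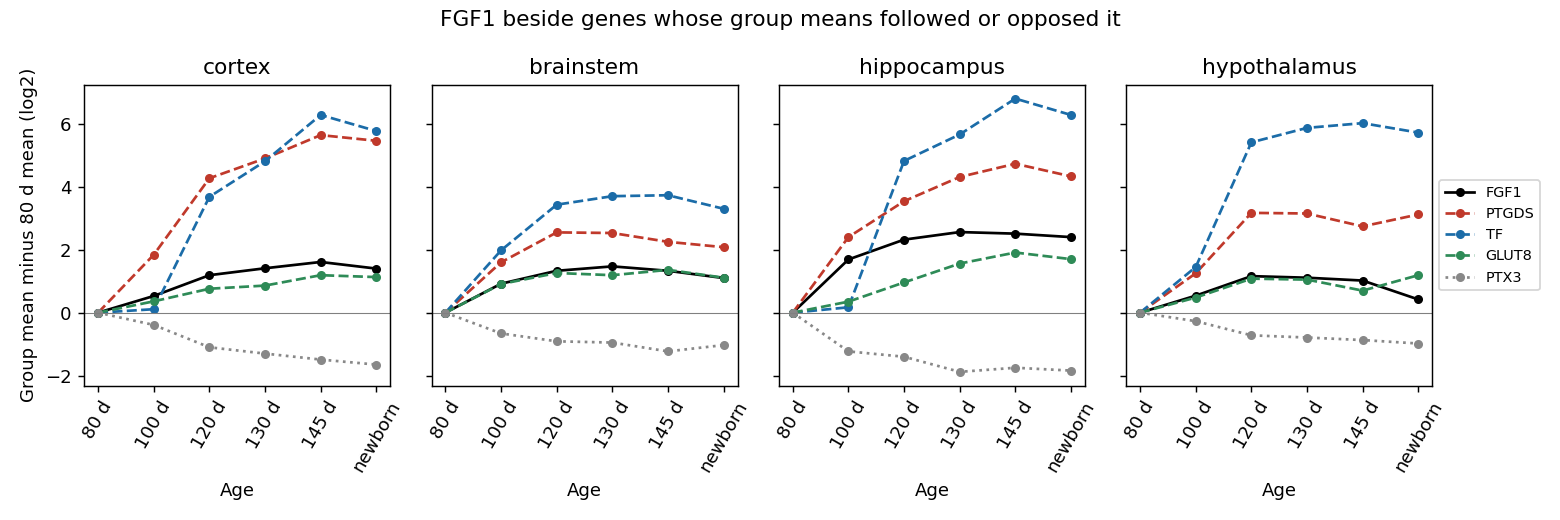
Group mean minus the 80 d mean (log2, vertical axis) against age (horizontal axis) in the 4 regions for FGF1 (solid line), PTGDS, TF and GLUT8 (dashed lines) and PTX3 (dotted line). FGF1 and PTGDS climb up to 120 d in every region, and in the hypothalamus FGF1 comes back to 0.42 in the newborn while PTGDS stays near its highest level.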

How the data were processed

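Total RNA was labelled with Cy3 and hybridised to 60-base oligonucleotide arrays. Each array's deposited file gives the mean intensity and the local background intensity per spot, and the authors also deposited a table of normalized log2 values. The methods name limma, background correction and quantile normalization. Feature Extraction is at version 10.1.1.1 in the file headers.

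From the files, background was removed with normexp (offset 50, limma 3.58.1, R 4.3.3), which narrows changes of dim spots, and log2 values were quantile normalized over 95 arrays. Spots with an outlier mark were left out. Probes were kept in a region if 1.1 times brighter than the 95th percentile of 77 negative controls on at least 4 arrays, and probes of a gene were averaged. Regions and ages were compared in limma (lmFit and eBayes) with Benjamini-Hochberg adjustment over all genes and a threshold of 0.05. limma stands in for the method named by the study, BETR. Of 15008 probes, 1656 had a symbol, from the files and from RefSeq genes of the assembly ARS-UI_Ramb_v3.0.

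FGF1, the gene lists and the tests were chosen with earlier results of these data known. Genes were named if they are FGF1, a gene of the FGF lists that passed in at least 1 region, 1 of the 5 most or 3 least like FGF1, or a cell type marker, and FGF7 and JUN complete the lists. A further listed gene is not reported here. Signal over background and the number of arrays limit the precision. The tests were also run on simulated arrays with independent noise, which cannot check the effect of shared slides, animals or twins. Alternatives changed the offset, signal, table, normalization, filter, probe rule, variance model, slide or replicate block, and left out single arrays. Those restricted to later ages, slides or well measured genes were chosen after seeing the data.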

Additional observations from a re-analysis of the deposited data

Results flagged for a closer look

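In the hippocampus at 80 d, replicate 4 read 6.87 for FGF1 while the other 3 arrays read 8.04, 7.93 and 8.14. Its gap to the nearest array was 0.837 of the range of the group, past the 95% critical value of Dixon's test for 4 samples. This was 1 of 23 groups of 4 examined, and chance alone marks about 1 in 20. The array correlated with the other 80 d hippocampus arrays at r of 0.94 to 0.954 over all genes, close to replicate 3 with 0.95 to 0.955. Its share of gene spots well above background was 74.7%, against 75.2 to 81.7% on the other 3.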

How the results depend on the processing

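The FGF1 difference from 80 d to the newborn kept its sign in every region under every alternative run. With the processed signal minus the 75th percentile it moved by more than the spread between replicates, to 1.83 in the cortex and 3.31 in the hippocampus, and brainstem minus hypothalamus reversed to -0.01 (adjusted p = 0.954). The cause was not tested. Between regions, hippocampus minus hypothalamus no longer passed in the authors' table (-0.19, adjusted p = 0.0749). With the slide as a random block (correlation 0.237), cortex minus hippocampus (-0.28, adjusted p = 0.185), brainstem minus hippocampus (0.32, adjusted p = 0.124) and hippocampus minus hypothalamus (-0.25, adjusted p = 0.275) were lost, and slide and region cannot otherwise be told apart. Without the 80 d arrays, brainstem minus hippocampus (0.15) and hippocampus minus hypothalamus (-0.02) were lost. Without the 8 arrays of the hippocampus slide scanned on another date, cortex minus hippocampus was lost (-0.24, adjusted p = 0.0564).

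Leaving out each array in turn gave cortex minus brainstem of -0.63 to -0.57, cortex minus hippocampus of -0.32 to -0.24, cortex minus hypothalamus of -0.57 to -0.50, brainstem minus hippocampus of 0.28 to 0.36, brainstem minus hypothalamus of 0.02 to 0.10 and hippocampus minus hypothalamus of -0.30 to -0.22, with no call changed. The FGF1 difference from 80 d ran from 1.24 to 1.56 in the cortex, 0.89 to 1.21 in the brainstem, 2.11 to 2.54 in the hippocampus and 0.29 to 0.49 in the hypothalamus. The pathway genes called from 80 d numbered 7 to 10 in the cortex, 12 to 16 in the brainstem, 0 to 1 in the hippocampus and 4 to 7 in the hypothalamus, and from 145 d 1 to 3 over all regions. Of 27 calls from 80 d, 4 were lost with some array, those of FGFR3 and STAT5A in the cortex, FGF10 in the brainstem and FGFR2 in the hypothalamus. From 145 d, FGF2 in the brainstem was lost without any 1 of 17 brainstem arrays (replicates 1 and 4 of 80 d, 4 of 130 d, 2 and 4 of the newborn, and each of 100, 120 and 145 d), and AKT1 in the hypothalamus without any 1 of 7 arrays there (replicate 4 of 80 d, 1 and 3 of 100 d, 1 and 2 of 145 d, and 2 and 4 of the newborn).

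In the hippocampus 1 pathway gene was called from 80 d with every probe on its own, with the brightest probe and with the slide as a fixed block, in each case MYC. Leaving out replicate 4 of 120 d or replicate 4 of the newborn called ANXA2 there, and leaving out replicate 1 of the newborn called FGF2. From 145 d the count was 1 with an offset of 16, the processed signal, no filter, quantile normalization within the region, the trend and robust settings, and the replicate block. Whether replicate numbers pair the regions of an animal within an age was not settled. Different ages are different animals, and within a region replicate numbers largely rise with the slide number. The part of the slide in the correlations below was not tested. Same-numbered arrays had a median correlation of 0.0547 between regions (56 of 141 pairs above 0.1) and of 0.106 between ages (120 of 235). For arrays with different numbers the medians were lower, at -0.0457 between regions (90 of 423) and -0.0432 between ages (213 of 705). With the replicate block the 6 FGF1 differences between regions kept their calls, and 2 of 29 calls of pathway genes were lost. Dim genes such as FGFR3 are limited by signal over background.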
